A study of Mus musculus with 32 samples.

Results

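Genes tied to the glucocorticoid receptor were followed through adipocyte differentiation of 3T3-L1, a preadipocyte line from mouse, with and without knockdown of Zbtb9, a gene for a zinc finger protein of the BTB family. The 8 genes, of 20560 in the deposited table, are the targets Fkbp5, Tsc22d3, Fam107a, Sgk1, Errfi1 and Dusp1, the receptor gene Nr3c1, and Hsd11b1, which encodes the enzyme that regenerates active glucocorticoid. They were chosen by name as known targets or partners of the receptor, with earlier results of these data known, and gathered as induced genes, which is a statement on their change from day 0 to day 3. Their values over days, by which they were chosen, are therefore given as descriptions with no test. All 8 were found once in the table.

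The 32 libraries form 12 groups. Cells carrying shRNA 1 or shRNA 2 against Zbtb9 gave 2 libraries each at days 0, 3, 7 and 11, and cells carrying a control hairpin gave 4 libraries at each of those days. At day 0, which lay 2 days after confluence, all cells received 1 μM dexamethasone, 0.5 mM isobutylmethylxanthine (IBMX) and 167 nM insulin. The mixture was taken off at day 3 for medium with insulin alone, and plain culture medium followed from day 7. All groups therefore saw the same agents, and dexamethasone, IBMX and insulin cannot be told apart in any change from day 0 to day 3. Whether cells of days 0, 3 and 7 were taken before or after that day's change of medium is not given in the sources used here. The labels call the libraries biological replicates of 1 line and name no separate cultures, so p-values measure the spread between these libraries.

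Dexamethasone is a synthetic ligand of the glucocorticoid receptor. Without ligand the receptor sits in the cytoplasm with heat shock proteins and immunophilins, and with ligand it enters the nucleus and binds palindromic response elements near its target genes. IBMX blocks phosphodiesterases and so raises cAMP, which acts on genes with cAMP response elements through CREB. In preadipocyte cultures both signals, with insulin, start the programme that leads to Pparg and Cebpa and to fat storage. Fkbp5 encodes an immunophilin that lowers the receptor's affinity for ligand, and Tsc22d3 encodes GILZ, an anti-inflammatory leucine zipper protein. Errfi1 encodes an inhibitor of the epidermal growth factor receptor, Dusp1 a phosphatase that inactivates MAP kinases, Sgk1 a serum and glucocorticoid regulated kinase, and Fam107a an actin-associated protein.

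Promoter sequences are shown for the members whose window held 2 or more receptor hexamers or a cAMP response element, and for Fkbp5 as one that held neither. They come from RefSeq (build GRCm38.p6), on the strand of the gene. The build behind the deposited table is not given in the sources used here. Windows ran from 250 bases before to 50 bases after each annotated start, and the stretch of 250 bases before the start is printed. Capitals mark AGAACA or its reverse complement TGTTCT, the arms of the receptor's palindrome, and TGACGTCA, the full cAMP response element, which reads the same on both strands.
Sgk1, chr10:21993640-21993889, plus strand: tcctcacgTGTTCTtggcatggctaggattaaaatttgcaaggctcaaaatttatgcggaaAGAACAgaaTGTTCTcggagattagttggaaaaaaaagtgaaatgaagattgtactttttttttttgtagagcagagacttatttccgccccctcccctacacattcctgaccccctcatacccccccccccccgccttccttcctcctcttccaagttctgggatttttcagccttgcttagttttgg
Fam107a, chr14:8309780-8310029, minus strand: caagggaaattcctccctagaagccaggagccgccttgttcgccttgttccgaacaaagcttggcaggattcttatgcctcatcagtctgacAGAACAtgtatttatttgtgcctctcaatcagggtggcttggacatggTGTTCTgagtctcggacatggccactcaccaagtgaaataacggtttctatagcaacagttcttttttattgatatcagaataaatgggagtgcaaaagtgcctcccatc
Dusp1, chr17:26508473-26508722, minus strand: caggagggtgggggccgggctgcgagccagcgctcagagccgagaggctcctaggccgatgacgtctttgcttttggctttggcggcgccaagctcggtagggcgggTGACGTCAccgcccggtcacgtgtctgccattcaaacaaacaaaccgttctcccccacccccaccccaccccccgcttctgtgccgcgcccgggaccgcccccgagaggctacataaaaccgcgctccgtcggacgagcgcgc
Errfi1, chr4:150854820-150855069, plus strand: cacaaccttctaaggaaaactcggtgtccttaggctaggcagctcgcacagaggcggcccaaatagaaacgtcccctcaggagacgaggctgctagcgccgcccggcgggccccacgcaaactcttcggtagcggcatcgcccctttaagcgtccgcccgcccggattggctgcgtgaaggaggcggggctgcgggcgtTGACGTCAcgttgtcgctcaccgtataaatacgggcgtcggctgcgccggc
Fkbp5, chr17:28486150-28486399, minus strand: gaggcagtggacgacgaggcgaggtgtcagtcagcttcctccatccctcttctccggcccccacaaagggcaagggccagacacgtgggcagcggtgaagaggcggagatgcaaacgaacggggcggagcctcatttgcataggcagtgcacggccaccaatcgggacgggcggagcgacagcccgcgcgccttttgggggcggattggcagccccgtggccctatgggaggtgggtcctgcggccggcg

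In the Sgk1 window shown, 1 of 6 for that gene, the hexamers AGAACA and TGTTCT lay 3 bases apart, which is the full palindrome, and its first base was 189 bases before the start. That arrangement was present in 3 of 32851 RefSeq windows of the same length (0.00913%). A lone hexamer on either strand was present in 18.97% of windows and the cAMP response element in 1.79%. Fam107a held 2 hexamers, 158 and 110 bases before the start, which were not spaced as a palindrome. Dusp1 and Errfi1 each held 1 cAMP response element, 143 and 51 bases before the start. All members but Nr3c1 matched a window, 17 in all, of which 6 held a hexamer, among Sgk1, Fam107a and Tsc22d3. The matches describe letters and not bound sites, and the windows leave out distal and intronic elements.

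By GENCODE M21 (GRCm38), Fkbp5 lies at chr17:28399094-28517527, Tsc22d3 at chrX:140539528-140600659, Fam107a at chr14:8296274-8318023, Errfi1 at chr4:150853919-150868892, Dusp1 at chr17:26505590-26562128, Sgk1 at chr10:21882184-21999903 and Hsd11b1 at chr1:193221634-193264075. Nr3c1 lies on chromosome 18. Exons of Dusp1 shared 11 bases with a gene on the opposite strand, and exons of the other members shared none with another gene.

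The deposited log2 values draw low levels together, and whole reads per gene were rebuilt from them by undoing that step. Each library held 22280363 to 31073726 rebuilt reads. Below, a level is in normalised reads, that is, rebuilt reads over each library's size factor, and a difference is in log2 units of the deposited values. Zbtb9 itself had few reads, and over all days its mean in knockdown was 52.2% of control. Its levels were 4.62 to 10.6 normalised reads in knockdown against 13.5 to 14.9 in control at day 0, and 4.87 to 9.28 against 12.7 to 22.3 at day 7. The arms overlapped at day 3 (0 to 8.99 against 6.35 to 12.6) and at day 11 (2.13 to 19.3 against 12.1 to 19.96), when the highest knockdown library lay above the control mean of 15.5. The labelled preadipocytes expressed the 6 preadipocyte and fibroblast markers, whose summed level was 252936 to 265933 normalised reads in control at day 0. Summed levels stayed at or below 628 for 4 macrophage markers, 48.7 for 4 endothelial markers and 15.05 for 3 epithelial markers in every library. Of the macrophage markers, Ptprc and Itgam stayed at or below 9.08 normalised reads, with 0 in most libraries.

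In control cells 6 of the 8 members were far higher at day 3 than at day 0, whereas Sgk1 and Nr3c1 were lower, in libraries that did not overlap between these days. Over the same days 38.3% of all genes tested rose and 38.2% fell in control, and nothing is read from the members' count, since the members were chosen as induced genes. The name of induced genes, under which the 8 were gathered, is thus not borne out for these 2 at day 3. All 6 were still above day 0 at day 7, 4 days after dexamethasone had been taken off. By day 11 each of the 6 was below its day 3 level. For Fkbp5 the 4 control libraries held 1303, 1281, 1152 and 1278 normalised reads at day 0 and 26494, 26155, 26173 and 26555 at day 3. At day 7 they held 25485, 25225, 26588 and 25407, and at day 11 3533, 3561, 3339 and 3348. The libraries of days 3 and 7 overlapped each other and stood apart from those of days 0 and 11. Mean Fkbp5 was 21.01 times its day 0 level at day 3, 20.5 times at day 7 and 2.75 times at day 11.

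Tsc22d3 followed a like course. Control libraries held 1147, 1269, 1115 and 1208 at day 0 and 13046, 14239, 13849.5 and 14051 at day 3, then 10899, 10852, 10959 and 9937 at day 7 and 1947, 1914, 1782 and 1779 at day 11. The 4 days did not overlap, and the mean at day 11 was still 1.57 times that of day 0. Fam107a was nearly absent before induction, with 0 or 1 rebuilt reads in each control library at day 0. It held 3068, 3422, 3276 and 3501 normalised reads at day 3 and 4601, 4556, 4213 and 4104 at day 7. At day 11 it was back to 25.2, 23.4, 20.9 and 22.3, which is 190.4 times lower than at day 7. Its day 7 libraries all lay above those of day 3, so in control Fam107a peaked in medium without added dexamethasone. In knockdown days 3 and 7 overlapped, with means of 2880 and 2638.

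Errfi1 and Dusp1, which restrain growth factor and MAP kinase signalling, were highest at day 3. Errfi1 held 848, 869, 891 and 863 at day 0 and 15361, 16049, 16419.9 and 16904 at day 3, then 9000.1, 9238, 9337 and 8839 at day 7 and 753, 868, 811 and 752 at day 11. Its libraries of days 0 and 11 overlapped. Dusp1 held 439, 399, 466 and 415 at day 0 and 3448, 3464, 3414 and 3427 at day 3. At day 7 it held 1360, 1425, 1501 and 1343, 2.44 times lower than at day 3, and at day 11 541, 568, 539 and 632. Of the 6 members that were higher at day 3, Dusp1 had lost the largest part of its day 3 level by day 7.

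Hsd11b1 was higher at day 3 and kept part of that level to the end. Control libraries held 53.9, 38.5, 44.1 and 49.7 at day 0 and 441, 445, 449 and 462 at day 3. The values were 319, 279.9, 267 and 252 at day 7 and 237, 279, 265 and 320.4 at day 11. Days 7 and 11 overlapped, and both lay above day 0 and below day 3. The receptor gene Nr3c1 varied least, with 5163 to 5509.8 at day 0, 3644 to 4224 at day 3, 4319.7 to 4608 at day 7 and 5352 to 5755 at day 11. Its day 3 libraries were all below those of the other days. Sgk1 was highest before induction, with 2466, 2627, 2645 and 2695, and held 1502, 1498, 1617 and 1509.5 at day 3. It was lowest at day 7, at 972 to 1039, and held 1141 to 1341 at day 11. The Sgk1 window with the full palindrome thus belongs to a gene that was not higher at day 3 in these libraries, and no time between days 0 and 3 was sampled.

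In knockdown cells the same 6 members were higher at day 3 than at day 0 in every library, over days on which 35.2% of all genes tested rose and 35.3% fell; again nothing is read from the count. Fkbp5 held 26858 and 25390 with shRNA 1 and 25884 and 26432 with shRNA 2 at day 3, and 35084 and 36228 with shRNA 1 and 32049 and 34049.6 with shRNA 2 at day 7. Day 7 lay above day 3 in all 4 knockdown libraries, whereas these days overlapped in control. Hsd11b1 held 449.7 and 478 with shRNA 1 and 541 and 548 with shRNA 2 at day 3, 1228 and 1252 with shRNA 1 and 1219 and 1366 with shRNA 2 at day 7, and 1507 and 1298 with shRNA 1 and 1377 and 1465 with shRNA 2 at day 11. Mean Hsd11b1 at day 7 was 38.7 times its day 0 level in knockdown, against 6.003 times in control. Its day 0 level in knockdown was low, at 24 to 52 rebuilt reads, and uneven. It held 40.7 and 22.1 normalised reads with shRNA 1 and 45.7 and 22.3 with shRNA 2. Sgk1 and Nr3c1 were lower at day 3 than at day 0 in knockdown as in control.

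**Figure D1:**
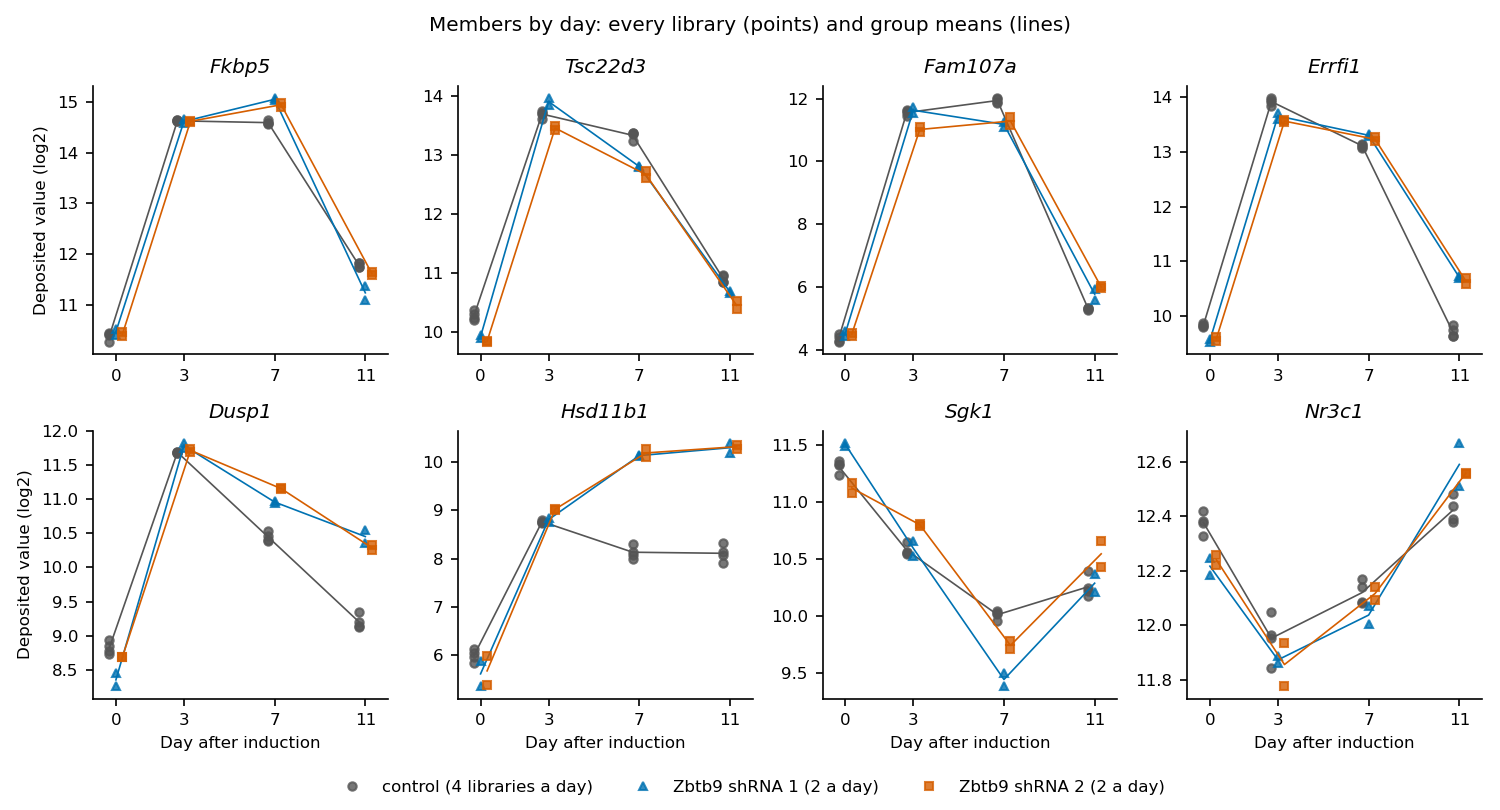
Deposited log2 values (y axis) of the 8 members by day after induction (x axis); each point is 1 library, grey circles are control, blue triangles shRNA 1 and orange squares shRNA 2, and lines join group means. Fkbp5, Tsc22d3, Fam107a and Errfi1 are high at days 3 and 7, Hsd11b1 separates the arms at days 7 and 11, and Sgk1 and Nr3c1 are lower at day 3 than at day 0.

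Per kilobase of annotated exon, with the exons of all isoforms joined, the order of the members in control changed with the days. Which isoforms were expressed was not determined, so ranks between genes are approximate. At day 0 Nr3c1 was highest at 696 ± 18.5 normalised reads per kilobase (SD, n = 4), followed by Sgk1 at 532 ± 20.2, and Fkbp5 and Dusp1 did not differ beyond their spread at 132 ± 7.24 and 129.8 ± 8.88. At day 3 Errfi1 led with 4518 ± 182, then Tsc22d3 with 3178 ± 121 and Fkbp5 with 2782 ± 22.1. Fam107a, at 857 ± 49.1, had passed Nr3c1, at 514 ± 30.9. By day 11 Nr3c1 led again with 719 ± 24.1, and Fam107a was last with 5.93 ± 0.4699. Hsd11b1 was last or next to last on all 4 days in control, with 64.8 ± 8.199 at day 11, and reached 332 ± 21.98 in knockdown.

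The other genes of the pathway were tested over days, with limma and Benjamini-Hochberg adjustment over all genes. Their lists were also drawn up with earlier results of these data known. Counts of the lists, here and in later comparisons, are therefore not independent support. From day 0 to day 3 in control, 38.3% of all genes tested rose and 38.2% fell. Among other known induced targets, 19 of the 23 tested rose and 3 fell, with a median difference of 1.63 beside 0.0022 for all genes. Zbtb16, a transcription factor gene, rose by 5.82, Glul, for glutamine synthetase, by 5.33, and Rasd1, for a dexamethasone-induced small G protein, by 3.98. Of inflammatory genes that the receptor is known to repress, 2 of the 11 tested rose and 8 fell, led by Mmp9 (-4.42), Cxcl5 (-3.82) and Ccl2 (-3.65). Among cAMP and CREB targets 7 of the 10 tested rose and 2 fell. The nuclear receptor gene Nr4a1 rose by 4.497. Of MAP kinase feedback genes, which include phosphatases and Sprouty inhibitors, 4 of the 7 tested rose and 2 fell, with Spry1 at 1.83. Of receptor chaperones and cofactors 14 of the 20 tested rose and 4 fell, with a median of 0.37. The mineralocorticoid receptor gene Nr3c2 fell (-1.497), and Ppp5c and Ppid, which encode cochaperones of the receptor complex, rose by 0.86 and 0.84.

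From day 3 to day 7 in control 37.6% of all genes rose and 36.6% fell. The cAMP targets fell between these days: none of the 10 tested rose and 8 fell, with Nr4a1 at -5.26, Fos at -1.43 and Junb at -1.39. Other induced targets divided, as 12 of the 23 tested rose and 11 fell. Fbxo32, a ubiquitin ligase gene, and Klf15, a transcription factor gene, rose by 3.23 and 2.89. Saa3, an acute phase gene, was at -2.800. Of the receptor machinery, 2 of the 20 tested rose and 18 fell, and H6pd, which supplies the cofactor for the Hsd11b1 enzyme, was one of those that rose (1.03). MAP kinase feedback genes mostly fell (1 of the 7 tested rose and 5 fell), led by Spry1 (-3.36) and Dusp6 (-2.97). Inflammatory targets divided too (7 of the 11 tested rose and 3 fell).

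From day 7 to day 11 in control 28.9% of all genes rose and 26.1% fell. Over these days other induced targets mostly fell: 1 of the 23 tested rose and 21 fell, with a median of -1.07. Zbtb16 (-2.76), Glul (-2.598) and the clock gene Per1 (-1.96) led the falls. Inflammatory targets went the other way, since 9 of the 11 tested rose and 2 fell, with the chemokine genes Cxcl5 at 2.81 and Cxcl1 at 2.31. Among cAMP targets 3 of the 10 tested rose and 3 fell, among MAP kinase feedback genes 4 of the 7 tested rose and 2 fell, and among the receptor machinery 12 of the 20 tested rose and 2 fell. The interval from day 7 to day 11 is the one in which insulin was taken off, 4 days later than dexamethasone and IBMX.

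In knockdown the shares of all genes that rose and fell were 35.2% and 35.3% from day 0 to day 3, 34.8% and 31.4% from day 3 to day 7, and 22.8% and 23.1% from day 7 to day 11. Other induced targets gave the same counts as in control at the first step (19 of the 23 tested rose and 3 fell). At the last step 1 of the 23 tested rose and 18 fell. Zbtb16 rose by 5.98 by day 3 and fell by 2.42 after day 7, and Glul rose by 5.45 and fell by 2.26. From day 3 to day 7 13 of the 23 tested rose and 5 fell, led by Klf15 at 4.64. Inflammatory targets at the last step mostly rose (9 of the 11 tested rose and 0 fell). When libraries were scaled to equal totals instead, the median of all genes from day 0 to day 3 moved by -0.13 in control and -0.16 in knockdown. Genes that rose then made up 38.6% of calls in control, against 50.1%, and 36.97% in knockdown, against 49.96%.

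Knockdown was then set against control on each day, with the 4 knockdown libraries as 1 arm (limma, adjusted p under 0.05 over all genes). With the replicate number as a block, members called were 0 at days 0 and 3 and 3 at day 11. The calls lost, 1 at day 7 among them, and the limits of the block are given at the end. Few members were called at days 0 and 3, and 7 of the 8 were at day 7 and again at day 11. At day 0, 2 of the 8 members were called, both lower, where 3.25% of all genes were called (0.817% higher and 2.44% lower). Tsc22d3 held 934 and 894 with shRNA 1 and 869.6 and 856 with shRNA 2, all below the 4 control libraries, a difference of -0.40 (SE 0.054, adjusted p = 0.0043). Errfi1 held 724 and 697 with shRNA 1 and 747 and 708 with shRNA 2, also all below control, a difference of -0.26 (SE 0.048, adjusted p = 0.019). The call for Errfi1 was lost without any 1 of the control libraries, at adjusted p of 0.058 to 0.080. Dusp1 and Nr3c1 lay below control in every library too but were not called (-0.30 and -0.15). With the hairpins as separate groups both were (adjusted p = 0.0011 and 0.00036), and so was Dusp1 in 1 fit of all 32 libraries (0.018). Hsd11b1 was at -0.35 and not called. By hairpin its difference hung on which library was left out, from -0.64 to -0.12 with shRNA 1 and from -0.62 to -0.022 with shRNA 2. Fam107a held 2 to 6 rebuilt reads in knockdown, near the limit of detection, and no fold is given for it. With equal totals, 43.3% of all calls at day 0 were higher, against 25.1%.

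At day 3, 1 member was called, where 26.7% of all genes were (14.6% higher, 12.1% lower). Errfi1 held 14009 and 12853 with shRNA 1 and 12743 and 12347 with shRNA 2, all below the control libraries, at a difference of -0.31 (SE 0.047, adjusted p = 0.00031). Fkbp5 differed by -0.011 (SE 0.039, adjusted p = 0.86), with overlapping libraries. Dusp1 differed by 0.064 (SE 0.041, adjusted p = 0.28) and Hsd11b1 by 0.15 (SE 0.074, adjusted p = 0.15). Tsc22d3 (-0.013), Fam107a (-0.23) and Sgk1 (0.12) were not called in the pooled arm, in which the hairpins differed for all 3. With the hairpins as separate groups Fam107a (adjusted p = 0.00031) and Sgk1 (0.030) were called, and Sgk1 also without shRNA 1 library 2 (0.033). The median absolute difference of the members was 0.10 in the pooled arm, beside 0.13 for all genes. It was 0.077 beside 0.15 with shRNA 1 and 0.23 beside 0.13 with shRNA 2. All 10 adipocyte markers were higher in knockdown on the same day, with a median of 0.97.

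At day 7, 7 of the 8 members were called, 4 higher and 3 lower, where 47.6% of all genes were (24.9% higher, 22.6% lower). With equal totals higher calls made up 44.7% of all calls in place of 52.4%. The largest difference was that of Hsd11b1, whose 4 knockdown libraries lay at 1219 to 1366 against 252 to 319 in control, a difference of 2.04 (SE 0.077, adjusted p = 4.9e-11). Dusp1 held 2056 and 2012 with shRNA 1 and 2327 and 2360.4 with shRNA 2, all above control, at 0.61 (SE 0.063, adjusted p = 1.2e-06). Fkbp5 was higher by 0.41 (SE 0.050, adjusted p = 7.9e-06) and Errfi1 by 0.15 (SE 0.047, adjusted p = 0.014). In the other direction, Tsc22d3 held 7275 and 7306 with shRNA 1 and 6903 and 6348 with shRNA 2, all below control, at -0.60 (SE 0.056, adjusted p = 4.0e-07). Fam107a held 2656 and 2412 with shRNA 1 and 3015 and 2471 with shRNA 2, again all below, at -0.71 (SE 0.067, adjusted p = 4.8e-07). Sgk1 was lower by 0.42 (SE 0.079, adjusted p = 0.00043), and Nr3c1 was not called (-0.043). Fkbp5 on one side and Tsc22d3 and Fam107a on the other, all high at day 7 in both arms, thus differed from control in opposite directions. The members' median absolute difference was 0.51, beside 0.20 for all genes.

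At day 11, 5 members were called higher and 2 lower, where 33.0% of all genes were called (16.8% higher, 16.2% lower). Hsd11b1 lay at 1298 to 1507 against 237 to 320.4, which is 513% of control and a difference of 2.21 (SE 0.087, adjusted p = 3.8e-08). Dusp1 held 1317 and 1511 with shRNA 1 and 1221 and 1287 with shRNA 2, 234% of control, at 1.16 (SE 0.076, adjusted p = 1.1e-06). Errfi1 held 1609 and 1654 with shRNA 1 and 1486 and 1627 with shRNA 2, 200.3% of control, at 0.96 (SE 0.062, adjusted p = 1.1e-06). For these genes every knockdown library lay above every control library. Fam107a was at 26 to 46 rebuilt reads in knockdown and 22 to 31 in control, at 0.58 (SE 0.12, adjusted p = 0.0033) on the deposited scale, which understates changes at such levels.

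Fkbp5, higher in knockdown at day 7, was lower at day 11, at 2566 and 2093 with shRNA 1 and 3108 and 2988 with shRNA 2 against 3339 to 3561, a difference of -0.36 (SE 0.10, adjusted p = 0.023). The call was lost when shRNA 1 library 1, control library 1 or control library 2 was left out, each at an adjusted p of 0.061. Tsc22d3 was lower by 0.33 (SE 0.071, adjusted p = 0.0041), all 4 knockdown libraries lying below control. Nr3c1 was higher by 0.15 (SE 0.051, adjusted p = 0.040), a call lost with 6 of the 8 libraries left out in turn, at adjusted p up to 0.12: shRNA 1 library 1, either shRNA 2 library, and control libraries 1, 2 and 3. It was lost as well with no filter (0.055), with equal totals (0.069) and without trend and robust steps (0.067). Sgk1 was not called, at 0.16 (SE 0.088, adjusted p = 0.19), but was without shRNA 1 library 2 (0.23, adjusted p = 0.040) and with the hairpins as separate groups (0.047). At this day the libraries of the arms also differed in depth, with 22839508 to 25511855 reads in knockdown against 26486057 to 31073726 in control. Summed over the 10 adipocyte markers, levels were 145088 to 216120 in knockdown against 52208 to 56824 in control at day 7, and 125275 to 150227 against 58967 to 69234 at day 11. All 10 were higher at day 7 and 9 at day 11, while 5 of 6 preadipocyte and fibroblast markers were lower on both days (151254 to 175891 against 182609 to 207090 summed at day 7, 179242 to 224986 against 219257 to 254050 at day 11). The macrophage marker Cd68 was also higher in knockdown, by 0.87 at day 7 and 0.86 at day 11 (limma, adjusted p = 0.00019 for day 7 and 0.028 for day 11), with summed levels of the 4 macrophage markers at 89.3 to 149.7 against 46.7 to 80.6 and 265 to 628 against 166 to 278. Of the others Csf1r was not called on these days, and Ptprc and Itgam did not pass the filter on low values. The part of these 3 sets in the members' differences was not tested. In bulk libraries, more cells of a type and more RNA per cell cannot be told apart.

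**Figure D2:**
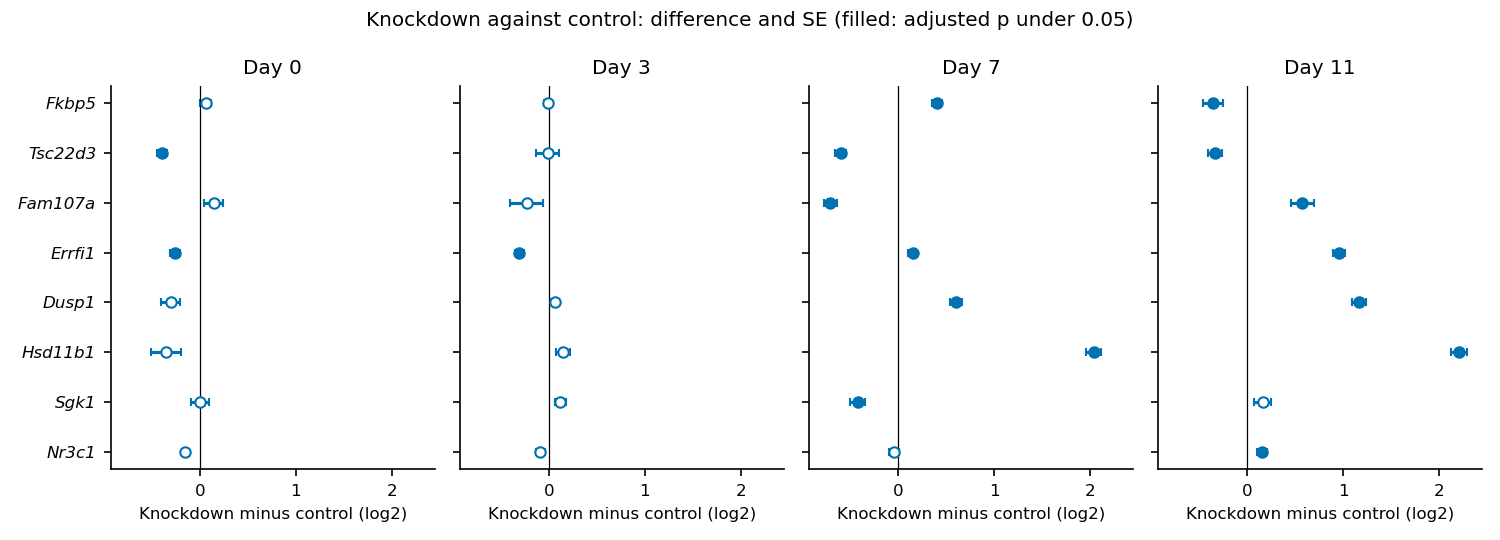
Difference of knockdown from control (x axis, log2 of the deposited values) for each member on each day; points are differences over 4 against 4 libraries, bars are 1 SE and filled points passed an adjusted p of 0.05. There are 2 filled points at day 0, 1 at day 3 and 7 on each later day, and Hsd11b1 lies farthest to the right at days 7 and 11.

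The knockdown effect itself changed between days for most members. From day 0 to day 3, 3 of 8 were called (background 6.57%), with a shift upward of 0.50 (SE 0.15, adjusted p = 0.041) for Hsd11b1, 0.38 (SE 0.11, adjusted p = 0.038) for Tsc22d3 and 0.37 (SE 0.11, adjusted p = 0.033) for Dusp1. The day 3 value behind the shift of Tsc22d3 (-0.013) pools hairpins called in opposite directions, at 0.21 with shRNA 1 and -0.24 with shRNA 2, against -0.36 and -0.43 at day 0, and the shift was not tested by hairpin. None of these 3 calls was kept with equal totals (adjusted p = 0.054, 0.055 and 0.053), and of the 16 libraries of these days 11, 10 and 9 ended the calls when left out singly, at adjusted p up to 0.11, 0.10 and 0.082. With no filter the adjusted p of Hsd11b1 was 0.057. From day 3 to day 7, 7 of 8 were called (background 23.1%). The effect on Hsd11b1 shifted by 1.89 (SE 0.15, adjusted p = 8.7e-11), that on Dusp1 by 0.54, on Errfi1 by 0.46 and on Fkbp5 by 0.42. It shifted downward for Tsc22d3 (-0.59, SE 0.11, adjusted p = 0.00028), Sgk1 (-0.54) and Fam107a (-0.47). From day 7 to day 11, 6 of 8 were called (background 12.7%). Fkbp5 shifted by -0.77 (SE 0.10, adjusted p = 2.0e-06), from higher to lower, and Fam107a by 1.28 (SE 0.16, adjusted p = 1.9e-06), from lower to higher. Errfi1 shifted by 0.81, Dusp1 by 0.56, Sgk1 by 0.58 and Nr3c1 by 0.20 (adjusted p = 0.038). The call for Nr3c1 was lost with 8 of the 16 libraries left out singly (adjusted p up to 0.092) and with no filter (0.061). For Hsd11b1 the last shift was 0.17 (SE 0.15, adjusted p = 0.52). Successive shifts share a day, so they are not independent of each other.

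The shifts of Fam107a depended on the scale, and its day 0 level was near the floor. On log2 of rebuilt normalised reads plus 1, its shift from day 0 to day 3 was -1.559 (adjusted p = 0.0019), whereas on the deposited scale it was -0.38 and not called. The deposited value was called when shRNA 1 library 1 of day 3 was left out (-0.51, limma adjusted p = 0.033). From day 3 to day 7 the shift on log2 of reads plus 1 was -0.49 (adjusted p = 0.28), so the call at that step was lost there. On the deposited scale 7 of the 16 libraries of days 3 and 7 ended that call when left out singly (adjusted p up to 0.096).

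Both hairpins were also tested apart, with 2 libraries each against the same 4 controls. At day 0 the shares of all genes called were 34.7% for shRNA 1, 17.6% for shRNA 2 and 35.0% between the hairpins. With both hairpins 3 members were called lower: Tsc22d3 at -0.36 and -0.43, Errfi1 at -0.27 and -0.24, and Nr3c1 at -0.16 and -0.14. Leaving out shRNA 1 library 2 ended the call for Nr3c1 (adjusted p = 0.053), as did leaving out either shRNA 2 library (0.14 and 0.054), and without shRNA 2 library 2 Errfi1 was not called with that hairpin (0.11). Sgk1 was called in opposite directions. It held 2971 and 3028 with shRNA 1 and 2351 and 2198 with shRNA 2, above and below the controls of 2466 to 2695, and the hairpins differed by -0.38 (SE 0.050, adjusted p = 4.9e-07). The call of Sgk1 with shRNA 2 was lost without its library 2 (adjusted p = 0.14). Dusp1 held 280.1 and 324 with shRNA 1 and 389 and 388 with shRNA 2, a difference of 0.34 (SE 0.10, adjusted p = 0.0063) that was not called without shRNA 1 library 1 (adjusted p = 0.12).

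At day 3 the shares called were 39.4%, 31.4% and 19.6%. For Tsc22d3 the hairpins were called in opposite directions. It held 16718 and 15402 with shRNA 1, above the controls of 13046 to 14239, and 11934 and 11349.7 with shRNA 2, below them. Against control the differences were 0.21 (SE 0.041, adjusted p = 6.9e-05) and -0.24 (SE 0.041, adjusted p = 2.1e-05), and between the hairpins -0.45 (SE 0.047, adjusted p = 3.2e-09). Fam107a held 3747 and 3259.8 with shRNA 1 and 2112 and 2400.2 with shRNA 2, against 3068 to 3501 in control, and the hairpins differed by -0.61 (SE 0.068, adjusted p = 1.3e-07). Errfi1 was lower with both (-0.26 and -0.36). Hsd11b1 was called higher with shRNA 2 (0.26, SE 0.081, adjusted p = 0.013) but not without either of its libraries (0.064 and 0.088), and the difference between hairpins was not called (0.22, SE 0.093, adjusted p = 0.10). Sgk1 was higher with shRNA 2 than with shRNA 1 by 0.21 (SE 0.064, adjusted p = 0.018), a call lost without shRNA 1 library 2 (0.26) or shRNA 2 library 2 (0.093), and with no filter (0.062). Fkbp5 was at -0.012 and -0.010, called with neither.

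At day 7 the shares called were 52.0%, 46.0% and 16.4%. The 7 members called in the pooled arm were called in the same direction with each hairpin, both of which share the 4 controls. Hsd11b1 was at 2.01 and 2.06, Tsc22d3 at -0.53 and -0.67, Fam107a at -0.76 and -0.65, and Fkbp5 at 0.46 and 0.35. The hairpins differed for Sgk1 (0.30, SE 0.078, adjusted p = 0.0089) and Dusp1 (0.20, SE 0.067, adjusted p = 0.043). The call for Sgk1 was lost without shRNA 1 library 1 (0.12) or shRNA 2 library 2 (0.076), and that for Dusp1 without any 1 of the 4 hairpin libraries (adjusted p up to 0.22) and with no filter (0.086). The call for Errfi1 with shRNA 2 (adjusted p = 0.047) was lost without shRNA 2 library 1 (0.28), with no filter (0.055) and with equal totals (0.082).

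At day 11 the shares called were 43.6%, 36.9% and 22.0%. Hsd11b1 (2.19 and 2.22), Dusp1 (1.25 and 1.08), Errfi1 (0.99 and 0.93) and Fam107a (0.46 and 0.69) were called higher with both, and Tsc22d3 (-0.22 and -0.45) lower. With shRNA 1 the calls for Fam107a, Tsc22d3 and Nr3c1 were lost without library 1 (adjusted p = 0.21, 0.054 and 0.29), and that for Fam107a also on log2 of the rebuilt normalised reads plus 1 (0.067). Sgk1 was called higher with shRNA 2 (0.29, SE 0.078, adjusted p = 0.0074), but not without library 1 of that hairpin (0.17), and was at 0.032 with shRNA 1. Fkbp5 was lower with shRNA 1 (-0.55, SE 0.066, adjusted p = 3.5e-06) and not called with shRNA 2 (-0.17, SE 0.066, adjusted p = 0.054, against 0.027 with equal totals), and the hairpins differed by 0.38 (SE 0.077, adjusted p = 0.0021). They differed as well for Tsc22d3 (-0.23, adjusted p = 0.029) and Sgk1 (0.26, adjusted p = 0.048). The call for Tsc22d3 was lost without shRNA 1 library 2 (0.14) or shRNA 2 library 2 (0.20), and that for Sgk1 without shRNA 1 library 2 (0.30) or shRNA 2 library 1 (0.37). With no filter neither was called (adjusted p = 0.057 for Tsc22d3 and 0.11 for Sgk1). Sgk1 was thus lower with shRNA 2 than with shRNA 1 at day 0, and on each later day higher, with calls that did not hold in the fits named above.

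**Figure D3:**
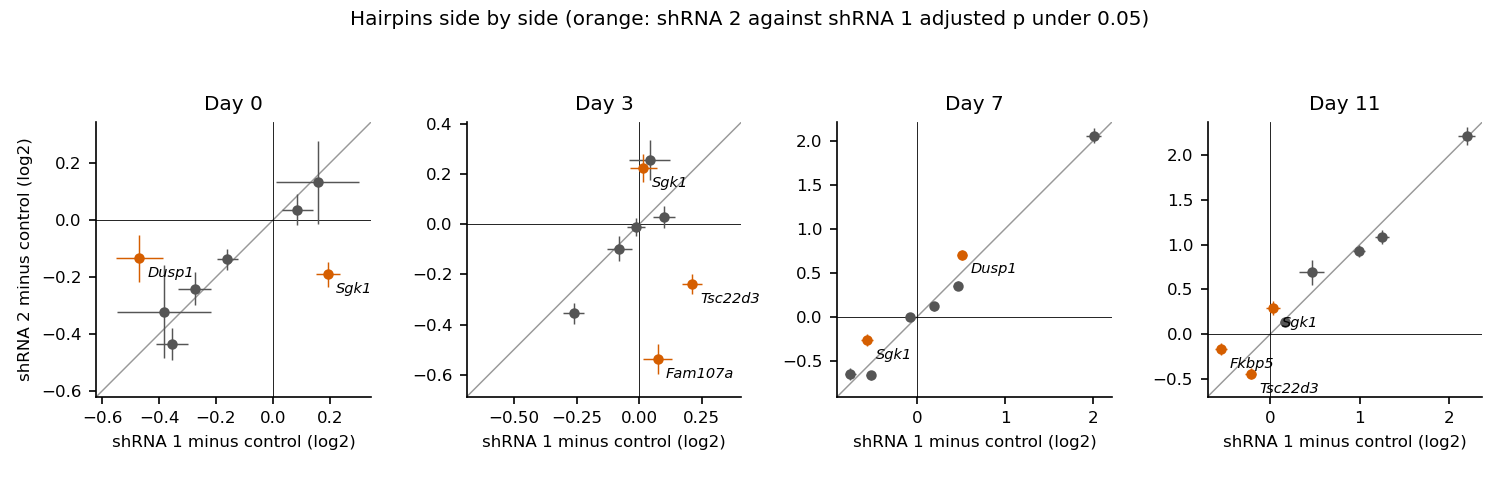
Difference from control with shRNA 1 (x axis) and with shRNA 2 (y axis), in log2 of the deposited values, for the 8 members on each day; bars are 1 SE, the grey line marks equal differences and orange, named points differed between hairpins at an adjusted p under 0.05. Tsc22d3 at day 3 and Sgk1 at day 0 lie right of 0 on the x axis and below 0 on the y axis; both axes share the 4 control libraries.

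The other genes of the pathway, taken from lists by role, were counted in the same comparisons. At day 0 none of the 20 genes of the receptor machinery was called by limma, with 1 at an unadjusted p under 0.05. Of all genes 0.817% were higher and 2.44% lower on that day. Other induced targets gave 4 lower and none higher of 23, led by Lcn2 (-0.73) and Saa3 (-0.71), both acute phase genes. Among inflammatory targets 3 of 11 were lower and none higher, led by Nos2 (-0.95). Of the 10 cAMP targets Fos (-0.60) and Nr4a1 (-0.55) were lower, and of the 7 MAP kinase feedback genes none was called, with 1 at an unadjusted p under 0.05. At day 3, when 14.6% of all genes were higher and 12.1% lower, 4 of the 20 genes of the receptor machinery were higher, among them the coactivator gene Ncoa1 (0.52) and the chaperone gene Hsp90aa1 (0.28), and 1, H6pd, was lower (-0.42). Of inflammatory targets 1 of the 11 tested were higher and 6 lower, with Mmp9 at -1.04 and Ptgs2, for a prostaglandin synthase, at 0.87. Of other induced targets 3 of the 23 tested were higher and 2 lower, with Lpin1 at 0.65 and Ddit4 at 0.49. The remaining counts at day 3 were 3 higher and 1 lower of 10 cAMP targets, and 2 higher of 7 MAP kinase feedback genes.

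At day 7, when 24.9% of all genes were higher and 22.6% lower, inflammatory targets were one-sided: 10 of 11 were lower and none higher, with a median of -0.98 beside 0.0062 for all genes. The matrix metalloproteinase genes Mmp9 and Mmp3 were at -1.99 and -1.557, and Cxcl5 at -1.75. Of other induced targets 13 of the 23 tested were higher and 5 lower, with Rasd1 at 2.36, Klf15 at 2.05 and Lpin1 at 1.58. Klf15 and Lpin1 are also known to rise as adipocytes form, and the 10 adipocyte markers were higher on that day. In the receptor machinery 4 of the 20 tested were higher and 4 lower, shares below those of all genes, with Ncoa1 at 1.07. Among cAMP targets 4 of the 10 tested were higher and 2 lower, and among MAP kinase feedback genes 2 of the 7 tested were higher and 1 lower, the latter with Spry4 at 0.82 and Dusp6 at -0.80.

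At day 11 16.8% of all genes were higher and 16.2% lower. Of inflammatory targets 1 of the 11 tested were higher and 7 lower, with Cxcl5 at -1.71. Other induced targets had 13 higher and 4 lower, with a median of 0.50, and Klf15 (2.04), Lpin1 (1.73) and Rasd1 (1.72) led again. All calls among cAMP targets were higher (5 of 10), with Fos at 0.70 and Sik1 at 0.67. MAP kinase feedback genes were higher in 5 of 7, with Dusp5 at 0.99 and Spry4 at 0.94, on the day on which Dusp1 and Errfi1 were higher as well. The receptor machinery gave 2 higher and 3 lower of 20, shares near or below those of all genes.

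From day 3 to day 7 the knockdown effect shifted upward for 12.9% of all genes and downward for 10.2%. On inflammatory targets it shifted downward for 9 of 11 and upward for none, led by Ccl2 (-1.19). Of 23 other induced targets 8 shifted upward, led by Rasd1 (2.38), and 2 downward. From day 7 to day 11 the shares of all genes were 5.05% and 7.66%. Upward shifts were called for 8 of the same 23 targets and downward ones for none, led by Per1 (0.85). Of 7 MAP kinase feedback genes 4 shifted upward, led by Dusp6 (1.36), and 1 downward, Dusp4 (-0.79). The adipocyte markers, for which the same was counted, shifted upward for 10 of 10 from day 0 to day 3 (3.69% of all genes shifted upward and 2.88% downward, and the median of the 10 was 1.04) and 8 of 10 from day 3 to day 7. From day 7 to day 11 none did, and 1, Lpl, shifted downward (-0.996).

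**Figure D4:**
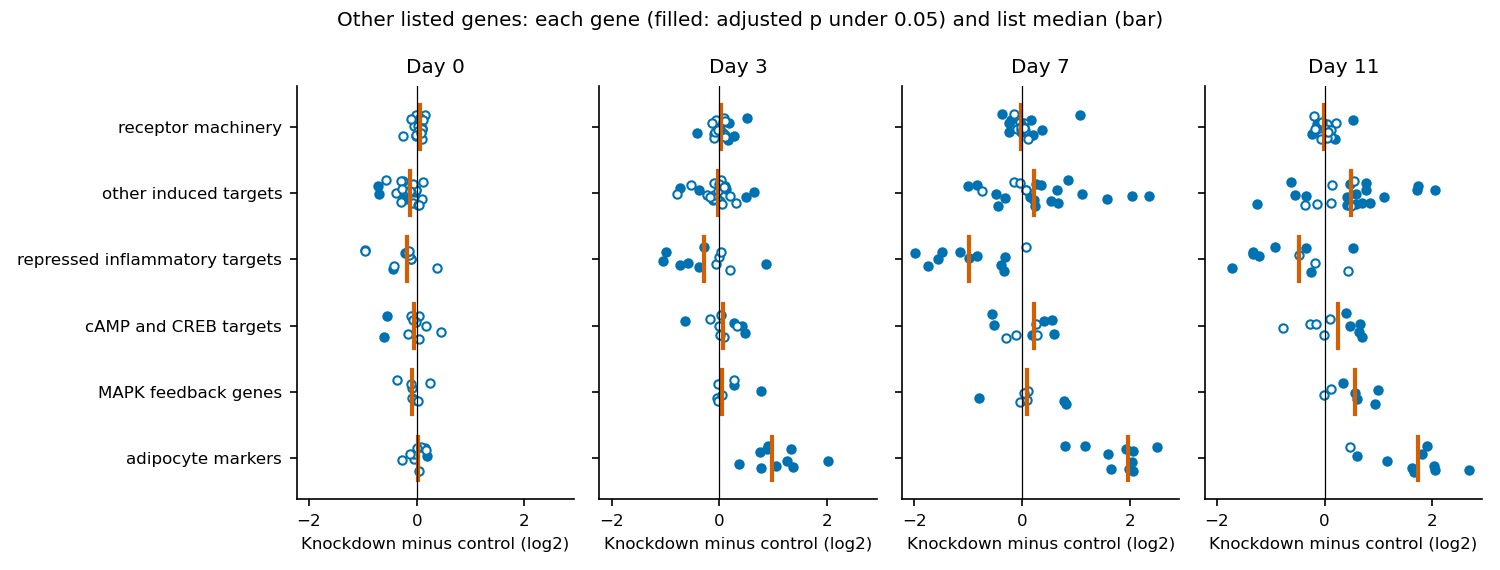
Difference of knockdown from control (x axis, log2 of the deposited values) for every tested gene of 5 pathway lists and of the adipocyte markers on each day; filled points passed an adjusted p of 0.05 and orange bars are list medians. At day 7, 10 of 11 inflammatory targets are filled and left of 0 (median -0.98), adipocyte markers right of 0 at days 3, 7 and 11.

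Over the 12 group means of deposited values, which share libraries and days, Fkbp5, Tsc22d3, Fam107a, Errfi1 and Dusp1 ran together, with r of at least 0.877 for each pair. Pearson's r was 0.987 between Fkbp5 and Fam107a, 0.986 between Fam107a and Errfi1, and 0.958 between Fkbp5 and Tsc22d3. Dusp1 joined Errfi1 at 0.928. Hsd11b1 reached 0.756 with Dusp1 and 0.481 with Tsc22d3, and Nr3c1 ran against Tsc22d3 at -0.810. Sgk1 ran against Fkbp5 at -0.680. The members were gathered as induced genes, a statement on their change over days, so high r among them follows in part from the choice. Among 5245 other genes with enough signal and range, those most like Fkbp5 were Cxcl13 (0.991), Slc25a17 (0.989) and Tle1 (0.984). Most like Tsc22d3 were Celf2 (0.994), Orm3 (0.989) and Serpina3f (0.982), and most like Fam107a Cxcl13 (0.993), Slc25a17 (0.988) and Clint1 (0.987). Errfi1 had Slc25a17 (0.989), Serpina3k (0.988) and Cxcl13 (0.987). Dusp1 had Nrip1 (0.992), Csrnp1 (0.987) and Rgs2 (0.984), and Hsd11b1 had Pgrmc2 (0.987), Gid4 (0.984) and Lipe (0.983), the last of them one of the adipocyte markers. For Sgk1 they were Zfp266 (0.949), Zbtb2 (0.948) and Cxcl12 (0.944), and for Nr3c1 Ifnar2 (0.958), Cdc42ep3 (0.957) and Hivep2 (0.953). Orm3, Serpina3f and Serpina3k, and Saa3 above, belong to families of close copies between which reads may be split. The values over 12 points describe how alike the courses were and carry no test.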

How the data were processed

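RNA was sequenced from 32 libraries of 3T3-L1 cells. Per the submitters' processing notes, TopHat2 2.1.0, Bowtie2 2.2.6, SAMtools 1.3.1 and HTSeq 0.6.1 were used. The genome build, the use of strand and the normalization are not given in the sources used here. The authors deposited 1 table of log2 values per gene and library, and their spread at low levels is that of a regularized log transform. Undoing such a transform gave rebuilt reads: 99.3% of values came within 0.1 of a whole number (20% by chance), and all 256 values of the 8 members did.

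Deposited values were tested with limma 3.58.1 (trend, robust) in R 4.3.3, 1 fit per day for knockdown against control, 1 for the hairpins, and 1 of all 32 libraries for the change in effect. Genes needed 2 to the power of the value of at least 10 in at least 4 libraries. Benjamini-Hochberg adjustment ran over all genes tested, and a gene was called at an adjusted p under 0.05. Changes between days were fitted over the 16 libraries of each arm, and the 8 members carry no test there. The script was tested on simulated data.

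The members and lists were chosen with earlier results of these data known. Of each other list, up to 3 called genes with the largest difference were named per comparison. For each member the 3 genes with the highest correlation over the 12 group means were named, among genes reaching 50 in a group and ranging over at least 1 log2 unit. Windows shown were those with a receptor hexamer pair or 2 hexamers, or a cAMP response element, plus one without. Of the listed genes, Tat, Adgre1 and Cldn4 were not analysed here. Alternatives were no filter and a stricter filter, equal totals, log2 of normalised reads plus a pseudocount of 1 or 8, no trend or robust step, hairpins as separate groups, 1 fit of all libraries, voom on rebuilt reads, the replicate number as a block, and each library left out.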

Additional observations from a re-analysis of the deposited data

Results flagged for a closer look

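In 4 of 64 groups of 4 libraries 1 library stood apart from the other 3 on the deposited log2 scale, where chance gives about 1 in 20. They were Fkbp5 in control library 3 at day 0 (10.3), Tsc22d3 in control library 4 at day 7 (13.2), Fam107a in shRNA 1 library 2 at day 11 (5.598) and Sgk1 in control library 3 at day 3 (10.7).

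The effect of knockdown differed between days at an adjusted p under 0.05 (limma) for 16 member values, out of 8 members at each step. Of all genes 6.57%, 23.1% and 12.7% shifted at these steps, in order of day. From day 0 to day 3 the shifts were those of Hsd11b1 (0.50), Dusp1 (0.37) and Tsc22d3 (0.38), none of them kept with equal totals. From day 3 to day 7 they were Hsd11b1 (1.89), Sgk1 (-0.54), Fam107a (-0.47), Dusp1 (0.54), Fkbp5 (0.42), Errfi1 (0.46) and Tsc22d3 (-0.59). From day 7 to day 11 they were Sgk1 (0.58), Fam107a (1.28), Dusp1 (0.56), Fkbp5 (-0.77), Nr3c1 (0.20) and Errfi1 (0.81).

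The hairpins differed for 10 member values, as shRNA 2 minus shRNA 1, out of 8 members on each of 4 days. Of all genes 35.0%, 19.6%, 16.4% and 22.0% differed between hairpins on days 0, 3, 7 and 11. At day 0 the members that did were Sgk1 (-0.38) and Dusp1 (0.34). At day 3 they were Sgk1 (0.21), Fam107a (-0.61) and Tsc22d3 (-0.45). At day 7 they were Sgk1 (0.30) and Dusp1 (0.20). At day 11 they were Sgk1 (0.26), Fkbp5 (0.38) and Tsc22d3 (-0.23).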

How the results depend on the processing

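Of the tests of single members under settings that kept every library, 756 kept direction and side of the threshold, 28 lost a call, 10 gained one and 4 uncalled values turned sign; the causes were not tested. With the replicate number as a block (replicate block), members called against control were 0 at day 0 in place of 2, 0 at day 3 in place of 1 and, on day 11, 3 in place of 7. In fits of 1 day, control libraries 3 and 4 have no same-numbered knockdown library, so with the block they add nothing to the difference. Fewer controls and the pairing by number cannot be told apart in the lost calls. At an unadjusted p under 0.05 limma gave 3 and 1 members at days 0 and 3 with the block. Genes called were 0 at day 0 (430 without the block; 1067 at an unadjusted p under 0.05), 845 at day 3 (3506), 4112 at day 7 (6328) and, for day 11, 1652 (4382). The calls lost to the block were those of Tsc22d3 (0.41) and Errfi1 (0.54) at day 0, Errfi1 at day 3 (0.054) and day 7 (0.12), and Fkbp5 (0.14), Tsc22d3 (0.053), Fam107a (0.077) and Nr3c1 (0.20) at day 11, with adjusted p in brackets (limma). Beyond these the block ended the calls of Errfi1 with shRNA 2 at day 7 (0.098), Fam107a with shRNA 1 at day 11 (0.058), and the shifts of Tsc22d3 from day 0 to day 3 (0.056) and Nr3c1 from day 7 to day 11 (0.053), and gave one for Fkbp5 with shRNA 2 at day 11 (0.028). The block turned the sign of Fkbp5 with shRNA 2 at day 0 (-0.0068), Tsc22d3 in knockdown at day 3 (0.0037) and Sgk1 with shRNA 1 at day 11 (-0.030). The labels give only a number, and whether same-numbered libraries were handled together is not given in the sources used here. Deviations of same-numbered libraries of different groups on 1 day correlated at -0.040 to 0.29. These pairs include shRNA 1 with shRNA 2, and 8 of 24 exceeded 0.1. Of 24 libraries, 16 correlated best with their own number in the other arm, and no chance share was worked out. With 2 libraries per hairpin, deviations within a hairpin are equal and opposite, so the pairs are not independent. With hairpins as separate groups, which takes the spread within hairpins, 4 members and 3340 genes were called at day 0, and 3 members and 5311 genes at day 3. Without trend and robust steps 261 genes were called at day 0. With no filter, 1 member differed between hairpins at day 7 and 1 at day 11. With equal totals 0 members shifted from day 0 to day 3 (4 at an unadjusted p under 0.05), and Fkbp5 between hairpins at day 3 was -0.011. Voom and limma on the rebuilt reads called 452, 3516, 6295 and 4415 genes, in order of day.

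Under equal totals, higher calls as a share of all calls went from 53.2% to 42.5% for shRNA 1 at day 7, 42.01% to 56.98% for shRNA 2 at day 0, 45.8% to 61.9% between hairpins at day 7, 56.2% to 42.4% for the shift from day 0 to day 3 and 55.9% to 45.3% for that from day 3 to day 7.

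With each library left out in turn, members called in knockdown numbered 1 to 2 at day 0, among 111 to 562 genes (the lowest without control library 3, the highest without shRNA 2 library 2), and 1 to 2 at day 3. Members called numbered 1 to 4 for shRNA 2 at day 0 and 4 to 7 for shRNA 1 at day 11. Between hairpins they numbered 1 to 2 at day 0, 0 to 1 at day 7 and 1 to 3 at day 11, and for the shift from day 0 to day 3 0 to 3.

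Small differences, in log2, that were uncalled with all libraries kept turned sign in some of these fits. Their ranges are given with the comparison. Sgk1 -0.066 to 0.082 (knockdown against control, day 0). Fkbp5 -0.0073 to 0.081 (shRNA 2 against control, day 0). Fkbp5 -0.11 to 0.0089, Fam107a -0.10 to 0.045, Errfi1 -0.0027 to 0.070, Nr3c1 -0.0080 to 0.054 and Hsd11b1 -0.24 to 0.36 (shRNA 2 against shRNA 1, day 0). Fkbp5 -0.024 to 0.0024 and Tsc22d3 -0.11 to 0.074 (knockdown against control, day 3). Fkbp5 -0.052 to 0.027, Fam107a -0.022 to 0.17 and Sgk1 -0.047 to 0.082 (shRNA 1 against control, day 3). Fkbp5 -0.025 to 0.0047 (shRNA 2 against control, day 3). Fkbp5 -0.037 to 0.042 and Nr3c1 -0.10 to 0.063 (shRNA 2 against shRNA 1, day 3). Nr3c1 -0.027 to 0.021 (shRNA 2 against control, day 7). Fam107a -0.032 to 0.24 and Hsd11b1 -0.023 to 0.13 (shRNA 2 against shRNA 1, day 7). The 0.24 of Fam107a, without shRNA 2 library 2, passed the threshold, in a fit that leaves 1 library of that hairpin. Sgk1 -0.048 to 0.11 (shRNA 1 against control, day 11). Nr3c1 -0.11 to 0.048 and Hsd11b1 -0.081 to 0.12 (shRNA 2 against shRNA 1, day 11).

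Depth limited Fam107a at day 0, which had 0 to 6 rebuilt reads a library, and Zbtb9.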
